A study of Mus musculus with 12 samples.

Results

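The genes described here encode the enzymes of the hepatic methionine cycle and of transsulfuration. They are *Mat1a*, *Mat2a*, *Mat2b*, *Gnmt*, *Nnmt*, *Ahcy*, *Bhmt*, *Bhmt2*, *Cbs* and *Cth*. They were taken by symbol from the deposited gene count table, in which all 10 have a row, and they are 10 of its 24411 genes. All 10 passed the filter on low counts that left 13922 genes for testing.

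Liver RNA was compared between 3 genotypes of C57BL/6 background at 3 months of age, with 3 mice each. Control mice (cont.) were *Atg7* flox/flox without Cre. *Atg7*-KO mice were *Atg7* flox/flox;Alb-*Cre*, in which the albumin promoter drives Cre in hepatocytes. *Atg7*-KO;p62T352A mice carried in addition the p62 T352A exchange on both alleles of the endogenous gene *Sqstm1*, and are also called double mutants here. The floxed *Atg7* allele was thus common to all 3 genotypes, and only the control mice had no Cre. The exchange was introduced by prime editing, and the authors made it to obtain a p62 that forms bodies with ubiquitinated proteins but does not hold KEAP1 in them. The first comparison therefore asks what loss of the autophagy gene *Atg7* in hepatocytes does to these RNAs. The second asks what the p62 exchange does on that background, and the third how the livers of the double mutants stand against control livers. The 3 comparisons share mice, so they are not independent of each other. Nothing in the labels ties mice of different genotypes to a litter, and the p-values measure the spread between these mice only.

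Methionine is activated by methionine adenosyltransferases to S-adenosylmethionine (SAM), the donor of most biological methylation. Transfer of the methyl group leaves S-adenosylhomocysteine, which AHCY cleaves to homocysteine and adenosine. Homocysteine is either methylated back to methionine, with betaine or methylfolate as donor, or passed by CBS and CTH through cystathionine to cysteine, a precursor of glutathione. Liver is the main site of this traffic. Differentiated hepatocytes use the enzyme encoded by *Mat1a*, whereas *Mat2a* is the gene used in most other tissues and in proliferating or fetal liver cells.

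The 250 bases before the RefSeq start sites (GRCm38.p6) are shown for 3 genes, because their RNAs took 3 different courses. *Mat2a* RNA was higher in *Atg7*-KO livers, *Ahcy* had the largest fall in *Atg7*-KO among the 10 genes, and *Gnmt* was the gene that was also lower in *Atg7*-KO;p62T352A than in cont. livers. The stretches lie at chr6:72439557-72439806 (*Mat2a*), chr2:155074498-155074747 (*Ahcy*) and chr17:46729166-46729415 (*Gnmt*). They are printed 5′ to 3′ in the direction of transcription, which is the minus strand for each. Capitals mark a CCAAT box, printed as ATTGG where it lies on the opposite strand, and the TATA box (TATAAA) of *Mat2a*.
Mat2a: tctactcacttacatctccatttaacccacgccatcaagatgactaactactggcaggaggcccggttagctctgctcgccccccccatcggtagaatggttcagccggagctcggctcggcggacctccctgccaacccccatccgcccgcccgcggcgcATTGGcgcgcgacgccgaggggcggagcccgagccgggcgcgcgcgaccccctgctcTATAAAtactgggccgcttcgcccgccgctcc
Ahcy: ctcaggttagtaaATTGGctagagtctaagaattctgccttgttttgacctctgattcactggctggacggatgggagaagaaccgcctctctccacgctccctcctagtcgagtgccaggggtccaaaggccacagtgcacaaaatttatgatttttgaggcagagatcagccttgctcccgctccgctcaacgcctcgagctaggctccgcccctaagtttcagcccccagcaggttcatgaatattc
Gnmt: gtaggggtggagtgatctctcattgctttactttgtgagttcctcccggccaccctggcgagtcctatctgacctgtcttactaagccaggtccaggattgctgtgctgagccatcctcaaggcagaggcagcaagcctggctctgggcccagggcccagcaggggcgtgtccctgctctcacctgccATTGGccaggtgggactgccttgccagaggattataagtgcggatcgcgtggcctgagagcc

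A RefSeq promoter was matched for 7 of the 10 genes, not for *Mat1a*, *Cth* or *Nnmt*. Motifs were searched on both strands of the 250 bases. The TATA box of *Mat2a* began at position -32 from the start site, and 12.4% of all 32851 promoters held this motif. A CCAAT box (CCAAT) was found for *Mat2a*, *Mat2b*, *Ahcy*, *Bhmt*, *Cbs* and *Gnmt*, against 33.8% of all promoters. The *Cbs* stretch also held an E-box (CACGTG) at -229, a motif of 6.02% of promoters. The core of the antioxidant response element, the letters TGACNNNGC bound by NRF2 with small MAF proteins, was not among these letters in any of the 7 windows, and 10.2% of all promoters held it. Likewise the ATF4 element TGATGCAA (0.791% of promoters) and the HNF1 element GTTAATNA (2.33%) were not found in the 7 windows.

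Depth and composition differed between the libraries. Totals lay between 9671080 and 23285132 counts in cont., between 16157269 and 18480553 in *Atg7*-KO and between 16133620 and 17357172 in double-mutant mice. The 10 genes together took 0.866% to 1.31% of all counts in cont., 0.436% to 0.514% in *Atg7*-KO and 0.898% to 1.19% in double-mutant livers. *Atg7* RNA itself was at 44.2 to 55.4 normalized CPM (counts scaled to library size with edgeR's TMM factors) in cont. livers, at 9.57 to 12.0 in *Atg7*-KO and at 27.4 to 29.7 in double-mutant livers. It was thus lower than in cont. in both Cre genotypes, but 2.73-fold higher in *Atg7*-KO;p62T352A than in *Atg7*-KO livers (FDR 0.000164). These are counts over the whole gene, not over its floxed part. The part of this difference in the results below was not tested. *Xist* had 7 to 28 counts in the mice numbered 1 of each genotype and 8578 to 18335 in the other 6.

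Among the 10 genes, *Mat1a* and the genes for SAM use, homocysteine remethylation and transsulfuration had lower RNA in *Atg7*-KO than in cont. livers. *Mat1a*, *Gnmt*, *Nnmt*, *Ahcy*, *Bhmt*, *Bhmt2*, *Cbs* and *Cth* fell, by factors between 1.92 and 5.33, and *Mat2a* alone rose. *Mat2b* did not pass the test. A gene was called at a Benjamini-Hochberg adjusted p (FDR) under 0.05 from edgeR's quasi-likelihood test and a fold change over 1.5, and 43.7% of all tested genes met this rule, 21.6% higher and 22.1% lower. Of the 10 genes, 8 were called lower and 1 higher, and their median log2 fold change was -1.63, against -0.03 over all tested genes.

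In double-mutant livers, 7 of the 8 RNAs that fell were higher than in *Atg7*-KO, and *Mat2a* was lower. *Gnmt* and *Mat2b* were not called. In this comparison 51% of all tested genes were called, 24.7% higher and 26.2% lower. The median log2 fold change of the 10 genes was 1.41, against 0.00 over all genes. Against cont. livers 1 of the 10 genes was called, *Gnmt*, which was lower. There 11.6% of all tested genes were called, 6.25% higher and 5.34% lower. The log2 fold changes of the other 9 genes lay between -0.30 (*Cth*) and 0.76 (*Nnmt*), which does not show that their levels were equal.

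**Figure D1:**
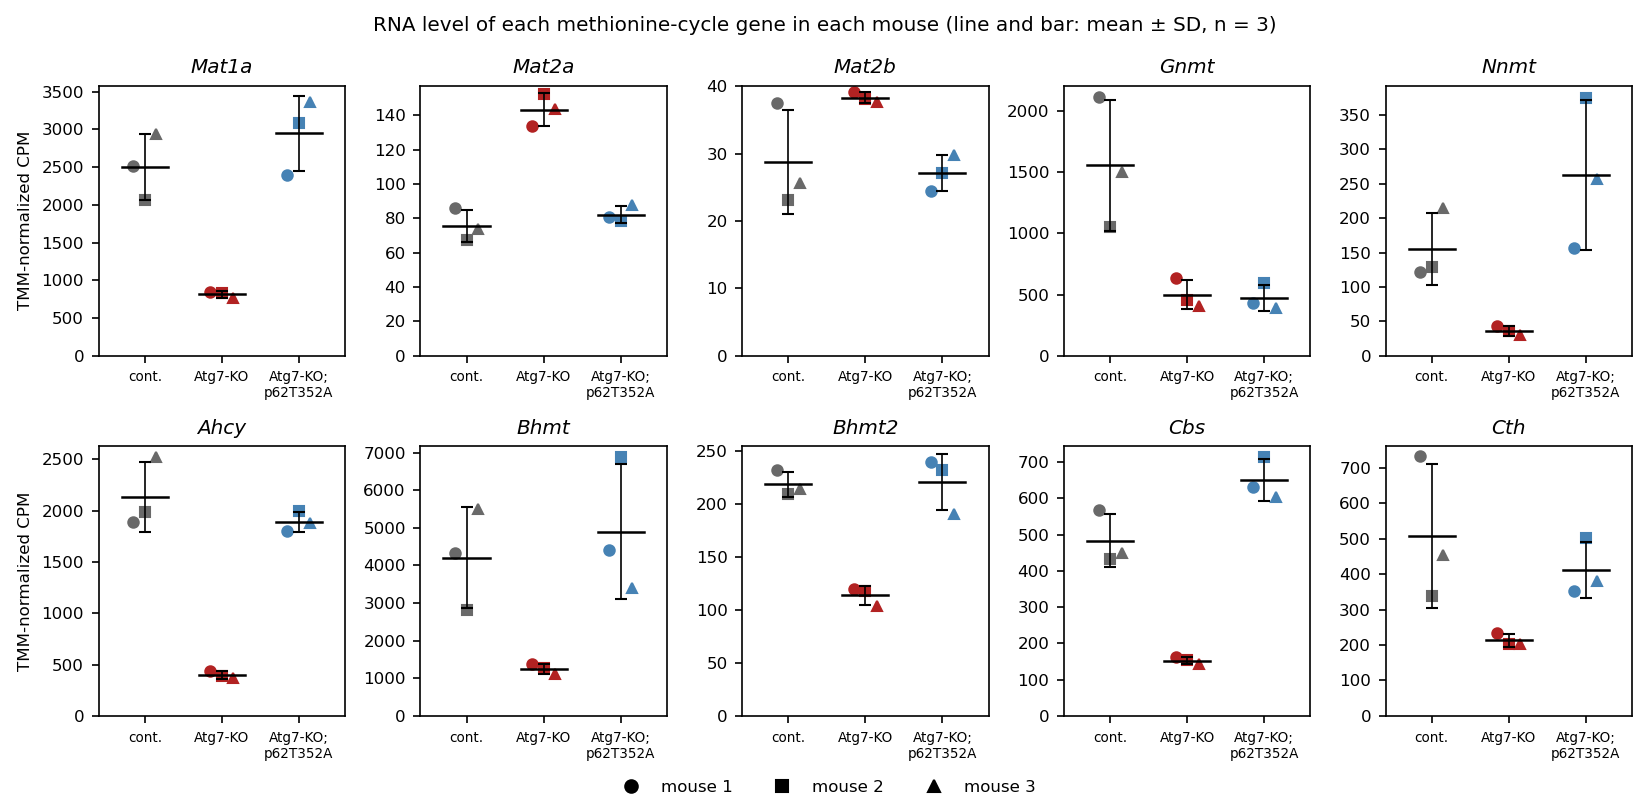
TMM-normalized CPM of the 10 genes in each liver, by genotype, with mouse numbers as symbols and the mean ± SD (n = 3) in black; each axis starts at 0. The *Atg7*-KO mice lie below every cont. mouse for 8 genes and above every cont. mouse for *Mat2a* and *Mat2b*, and only for *Gnmt* do the *Atg7*-KO;p62T352A mice share the range of *Atg7*-KO. How many of all 13922 tested genes separate in this way was not counted. The separation is therefore not shown to be particular to these genes. *Mat2b* was not called in *Atg7*-KO against cont., where 43.7% of all tested genes were.

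**Figure D2:**
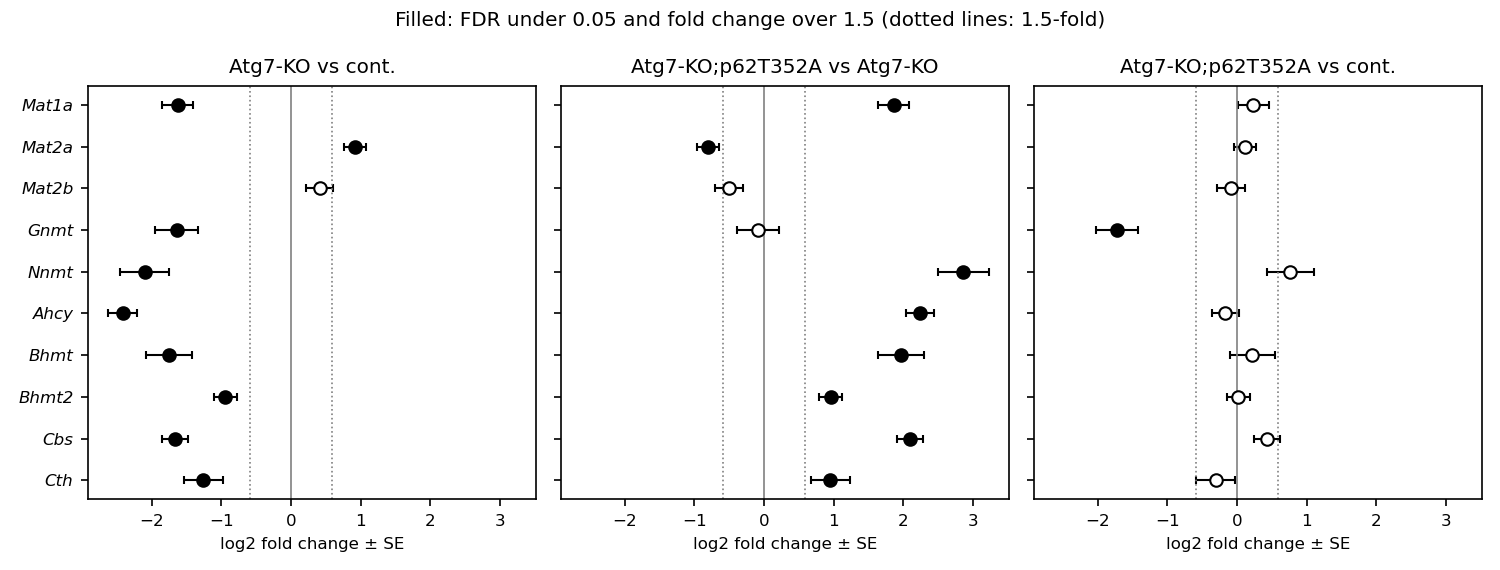
Log2 fold change ± SE of each gene in the 3 comparisons, with filled points for genes called at an FDR under 0.05 and a fold change over 1.5 and dotted lines at 1.5-fold. In the third panel *Gnmt* is the gene with a filled point, at -1.72.

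SAM synthesis is the entry to the cycle. *Mat1a* (chr14:41105035-41124412 of GRCm38, plus strand, 9 exons) encodes the catalytic subunit of the adult liver enzyme. Its RNA was at 2514, 2058 and 2935 normalized CPM in cont. mice 1 to 3, at 844, 828 and 763 in *Atg7*-KO and at 2396, 3083 and 3360 in double-mutant mice. All *Atg7*-KO livers were below all others, and cont. and double-mutant livers overlapped. The log2 fold change was -1.62 ± 0.22 (SE, FDR 0.000456) in *Atg7*-KO against cont. and 1.86 ± 0.22 (FDR 0.000214) in *Atg7*-KO;p62T352A against *Atg7*-KO. Against cont. the double mutants differed by 0.24 ± 0.22 (FDR 0.521).

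*Mat2a* (chr6:72432799-72439558, minus strand, 9 exons) encodes the catalytic subunit used outside the adult liver. Its RNA stood at 85.7, 67.4 and 73.5 normalized CPM in cont., at 133, 152 and 144 in *Atg7*-KO and at 80.8, 78.2 and 87.5 in double-mutant mice. Here the *Atg7*-KO livers were the high ones, with no overlap. *Mat2a* rose by 0.92 ± 0.16 on the log2 scale (FDR 0.00156) in *Atg7*-KO and was lower by -0.80 ± 0.16 (FDR 0.00254) in *Atg7*-KO;p62T352A than in *Atg7*-KO. The antisense gene *Particl* overlaps *Mat2a* on the opposite strand, and 10.2% of the 75-base stretches of the *Mat2a* transcripts also occur in transcripts of other genes. *Particl* has its own row with 12 to 31 counts per mouse. The strand setting of the counting is not given in the sources used here, so reads of the pair cannot be told apart.

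*Mat2b* (chr11:40679314-40695203, minus strand, 7 exons) encodes the regulatory subunit that binds the MAT2A enzyme. It was at 37.5, 23.1 and 25.6 normalized CPM in cont., at 39.1, 38.2 and 37.6 in *Atg7*-KO and at 24.4, 27.1 and 29.8 in double-mutant mice. The *Atg7*-KO mice were above the others, but cont. mouse 1 was close to them. The log2 fold change in *Atg7*-KO was 0.41 ± 0.20 (FDR 0.116), and without cont. mouse 1 it was 0.65 (FDR 0.00201). The double mutants differed from *Atg7*-KO by -0.50 ± 0.20 (FDR 0.0576), and upper-quartile scaling made this -0.63 (FDR 0.0294).

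The coding sequences of *Mat1a* and *Mat2a* were 73.1% identical over 1185 aligned bases, yet no 75-base stretch of the *Mat1a* transcript occurs in a transcript of another gene. A ratio of the pair within a liver does not depend on library scaling. Per kilobase of transcript, *Mat1a* was 25.6, 26.7 and 34.9 times as high as *Mat2a* in the cont. mice. The ratio was 5.53, 4.75 and 4.65 in *Atg7*-KO and 25.9, 34.5 and 33.6 in double-mutant mice. *Mat1a* thus made up 96.2% to 97.2% of the *Mat1a* and *Mat2a* RNA per length in cont., 82.3% to 84.7% in *Atg7*-KO and 96.3% to 97.2% in double-mutant livers. In bulk liver, fewer cells of a type and less RNA per cell cannot be told apart, and *Mat2a* is also expressed by the non-parenchymal cells.

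**Figure D3:**
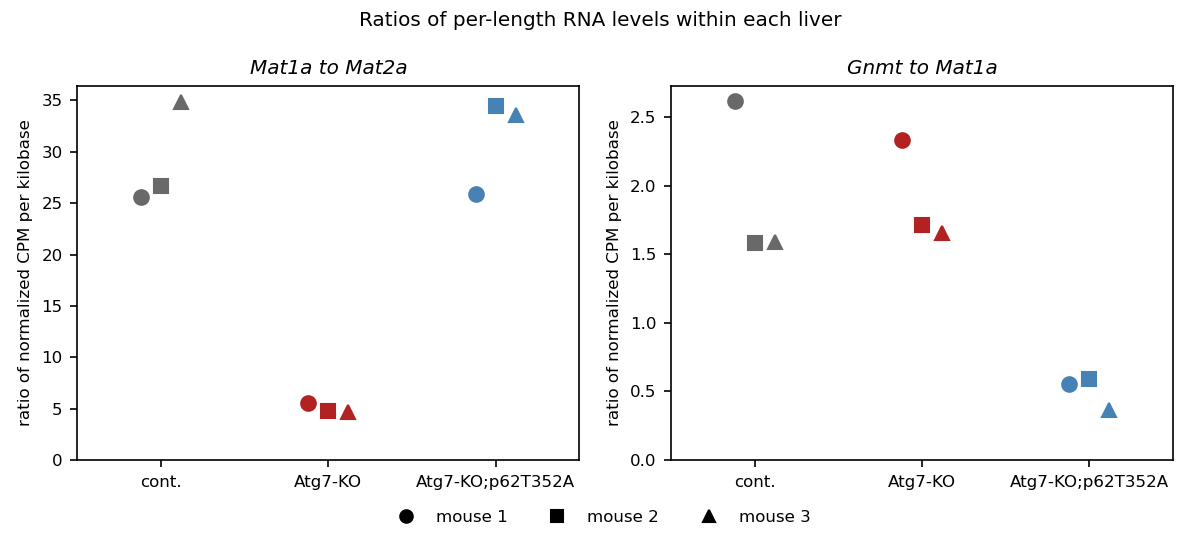
Ratio of per-length levels (normalized CPM per kilobase of transcript) of *Mat1a* to *Mat2a* and of *Gnmt* to *Mat1a* in each liver, by genotype, with mouse numbers as symbols. The *Mat1a* to *Mat2a* ratio is low in *Atg7*-KO only, at 4.65 to 5.53, whereas the *Gnmt* to *Mat1a* ratio is low in *Atg7*-KO;p62T352A only, at 0.363 to 0.594.

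Among enzymes that use SAM, *Gnmt* (chr17:46725664-46729168, minus strand, 6 exons) encodes glycine N-methyltransferase, which methylates glycine to sarcosine and disposes of excess SAM in hepatocytes. Its RNA was at 2119, 1049 and 1505 normalized CPM in cont., at 634, 458 and 407 in *Atg7*-KO and at 430, 590 and 394 in double-mutant mice. Both Cre genotypes lay below every cont. mouse and overlapped each other. The log2 fold change was -1.64 ± 0.31 (FDR 0.00224) in *Atg7*-KO against cont. and -1.72 ± 0.31 (FDR 0.0107) in *Atg7*-KO;p62T352A against cont. Between the mutants it was -0.08 ± 0.30 (FDR 0.826). Without *Atg7*-KO;p62T352A mouse 3 the change against cont. was -1.61 and missed the threshold (FDR 0.0545).

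Set against *Mat1a* per length, *Gnmt* stood at 2.61, 1.58 and 1.59 in cont., at 2.33, 1.72 and 1.65 in *Atg7*-KO and at 0.556, 0.594 and 0.363 in double-mutant mice. In cont. and *Atg7*-KO livers the ratios overlapped. In the double mutants all 3 ratios were below those of the other 6 mice. Whether the course of *Gnmt* differs from that of the other members was not tested, and with 3 mice against 3 an exact permutation test of a ratio cannot go below p = 0.1.

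*Nnmt* (chr9:48591877-48605153, minus strand, 3 exons) encodes nicotinamide N-methyltransferase, which joins SAM use to NAD metabolism. It was at 122, 129 and 215 normalized CPM in cont., at 43.8, 35.2 and 29.6 in *Atg7*-KO and at 156, 375 and 258 in double-mutant mice. The *Atg7*-KO livers were the low ones, and the double mutants ranged from within the cont. values to above them. The log2 fold changes were -2.10 ± 0.35 (FDR 0.00129) in *Atg7*-KO against cont. and 2.86 ± 0.36 (FDR 0.000259) between the mutants, the largest rise of the 10 genes there. Against cont. the double mutants were at 0.76 ± 0.34 (FDR 0.175).

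*Ahcy* (chr2:155059310-155074497, minus strand, 10 exons) encodes S-adenosylhomocysteine hydrolase, which removes the inhibitory product of methyl transfer. It was at 1891, 1983 and 2521 normalized CPM in cont., at 438, 392 and 369 in *Atg7*-KO and at 1802, 1999 and 1877 in double-mutant mice. The *Atg7*-KO livers were far below the other genotypes, which overlapped. *Ahcy* fell 5.33-fold in *Atg7*-KO (log2 fold change -2.41 ± 0.20, FDR 3.9e-05) and was 4.73-fold higher in the double mutants than in *Atg7*-KO (2.24 ± 0.20, FDR 6.43e-05). Against cont. the difference was -0.17 ± 0.19 (FDR 0.609).

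Of the 75-base stretches of the *Ahcy* transcripts, 65.9% also occur in transcripts of other genes, so the count of *Ahcy* alone is uncertain. *Gm4737*, *Gm9826* and *Gm5638* share the most of them. *Gm4737* has a row of its own, at 172 to 473 normalized CPM in cont., 87.8 to 149 in *Atg7*-KO and 43.8 to 94.3 in double-mutant mice. The sum of both rows gave a log2 ratio of group means of -2.23 in *Atg7*-KO against cont., where *Ahcy* alone gave -2.41. Between the mutants the sum gave 1.93, and *Ahcy* alone gave 2.24.

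The betaine-dependent return to methionine is encoded by *Bhmt* (chr13:93616675-93637961, minus strand, 8 exons). The neighbour of *Bhmt* is the related methyltransferase gene *Bhmt2* (chr13:93655720-93674302, minus strand, 8 exons). The genes lie 17758 bases apart, and 74.9% of 1089 aligned coding bases are identical. BHMT takes its methyl group from betaine, and BHMT2 from S-methylmethionine. *Bhmt* was at 4326, 2804 and 5507 normalized CPM in cont., at 1370, 1282 and 1106 in *Atg7*-KO and at 4412, 6881 and 3407 in double-mutant mice. It fell by 1.75 ± 0.33 on the log2 scale in *Atg7*-KO (FDR 0.00246) and was 1.97 ± 0.33 higher in the double mutants than in *Atg7*-KO (FDR 0.00111). All *Atg7*-KO values were below all others, while cont. and double mutants overlapped (0.22 ± 0.32, FDR 0.705). Of the 75-base stretches of the *Bhmt* transcripts, 21.6% also occur in transcripts of other genes. *Gm5096*, *Bhmt-ps1* and *Gm15622* share the most of them and have no row in the table, and *Gm15622* overlaps *Bhmt* on the opposite strand.

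*Bhmt2* followed the same order with a smaller span. It was at 232, 209 and 214 normalized CPM in cont., at 120, 118 and 104 in *Atg7*-KO and at 240, 232 and 191 in double-mutant mice. The log2 fold changes were -0.94 ± 0.17 (FDR 0.0017) and 0.96 ± 0.17 (FDR 0.00124) in the first and second comparison. Against cont. the double mutants differed by 0.02 ± 0.16 (FDR 0.966).

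Transsulfuration is encoded by *Cbs* (chr17:31608894-31637238, minus strand, 17 exons), cystathionine beta-synthase, and *Cth* (chr3:157894248-157925077, minus strand, 12 exons), cystathionine gamma-lyase. *Cbs* was at 567, 434 and 449 normalized CPM in cont., at 161, 155 and 142 in *Atg7*-KO and at 631, 715 and 604 in double-mutant mice. The 3 genotypes did not overlap for *Cbs*, with the double mutants above cont. The log2 fold changes were -1.66 ± 0.18 (FDR 0.000158) in *Atg7*-KO against cont. and 2.09 ± 0.19 (FDR 6.27e-05) between the mutants. Against cont. the double mutants were at 0.43 ± 0.18, which did not pass (FDR 0.154).

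*Cth* was at 734, 339 and 453 normalized CPM in cont., at 233, 202 and 203 in *Atg7*-KO and at 352.5, 502 and 382 in double-mutant mice. The cont. mice spread widely, with mouse 1 well above the others, and all of them were above the *Atg7*-KO mice. The log2 fold change was -1.26 ± 0.28 (FDR 0.00601) in *Atg7*-KO and 0.95 ± 0.28 (FDR 0.0177) between the mutants. The second call was lost without *Atg7*-KO mouse 2 (FDR 0.0647), *Atg7*-KO mouse 3 (FDR 0.0634) or *Atg7*-KO;p62T352A mouse 2 (FDR 0.0619). Against cont. the double mutants were at -0.30 ± 0.28 (FDR 0.52).

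Levels of different genes can be compared per length only. In cont. livers *Bhmt* (1692 ± 544, SD, n = 3) and *Gnmt* (1505 ± 519) led the 10 genes in normalized CPM per kilobase, and their ranges overlapped. *Ahcy* (838 ± 134) and *Mat1a* (780 ± 137) came next and also overlapped. *Cth* (280.2 ± 112), *Cbs* (191 ± 28.8) and *Nnmt* (149 ± 50.0) followed, each overlapping its neighbour, and the 7 highest genes were all above *Bhmt2* (88.5 ± 4.86). *Mat2a* (26.9 ± 3.32) and *Mat2b* (14.7 ± 3.96) were the lowest, and their ranges did not overlap.

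In *Atg7*-KO livers *Bhmt* (503 ± 54.2) and *Gnmt* (483 ± 115) still led and overlapped, while *Ahcy* (157 ± 13.9) was below *Mat1a* (253 ± 13.3) without overlap. *Mat2a* (51.1 ± 3.39) moved to place 7, between *Cbs* (60.3 ± 3.85) and *Bhmt2* (46.1 ± 3.56), and its range touched that of *Bhmt2* but not that of *Cbs*. *Nnmt* (34.7 ± 6.86) stood at place 9 and *Mat2b* (19.6 ± 0.398) at place 10.

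In double-mutant livers *Bhmt* (1968 ± 718) was again the highest, followed by *Mat1a* (918 ± 155) and *Ahcy* (744 ± 39.0), which overlapped. *Gnmt* (455 ± 101) was at place 4, without overlap with *Ahcy* above it. *Gnmt* took a mean of 26.8% of the summed per-length RNA of the 10 genes in cont., 27.7% in *Atg7*-KO and 9.18% in double-mutant livers. *Ahcy* took 15.5%, 9.14% and 15.3%, and *Mat2a* 0.495%, 3.00% and 0.61%, in the same order of genotypes. These levels rest on 1 transcript length per gene. For *Cbs* a longer principal transcript of 6226 bases is annotated beside the 2533 bases used, and it would lower its per-length level 2.46-fold.

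Cell type markers moved with these genes. Of 6 hepatocyte markers (*Alb*, *Apoa1*, *Ttr*, *Cps1*, *Serpina1c* and *Fgb*), all 6 fell in *Atg7*-KO, with a median log2 fold change of -1.31. In that comparison 21.6% of all tested genes were called higher and 22.1% lower. Between the mutants 5 of the 6 were called higher, where 24.7% of all tested genes were. *Cps1* was not called there (0.40 ± 0.28, FDR 0.25). In the double mutants *Cps1* was called lower than in cont. (-1.17 ± 0.28, FDR 0.028). The summed level of the 6 markers was 72967 to 134170 normalized CPM in cont., 36897 to 39236 in *Atg7*-KO and 110140 to 127680 in double-mutant livers. Stellate cell, macrophage, cholangiocyte and lymphocyte markers summed highest in *Atg7*-KO. The 8 stellate cell markers summed to 254 to 312, 974 to 1165 and 375 to 662 in cont., *Atg7*-KO and double-mutant livers, with 7 of 8 called higher in *Atg7*-KO against cont. The collagen genes *Col1a1*, *Col1a2* and *Col3a1* weighed heavily in this sum, with means of 7.28, 14.8 and 23.8 in cont. and 132, 142 and 345 in *Atg7*-KO. *Reln* was the marker not called (0.51 ± 0.17, FDR 0.0328). The 8 macrophage markers summed to 225 to 269, 569 to 617 and 165 to 307, with 5 called higher and 1 lower. The 6 cholangiocyte markers summed to 33.4 to 51.3, 826 to 1023 and 181 to 266, with 5 of 6 called higher. *Spp1*, which other cells also express, made up most of this sum, with means of 33.8, 871 and 172 in cont., *Atg7*-KO and double-mutant livers. *Sox9* was at means of 4.87, 25.7 and 30.8, and 3 of the 6 (*Epcam*, *Sox9* and *Spp1*) were called higher in the double mutants than in cont. For lymphocytes 4 of 6 markers were called higher, with sums of 3.90 to 10.3, 14.9 to 20.4 and 7.83 to 11.2. The 5 endothelial markers had 2 higher and 1 lower, with sums of 220 to 294, 215 to 225 and 123 to 153. In the double mutants against cont., 3 stellate cell, 1 macrophage and 1 lymphocyte marker were called higher. Lower calls there were 1 stellate cell and 3 endothelial markers, beside 6.25% higher and 5.34% lower of all tested genes. No marker was at 0 in every mouse of a genotype. The part of these shifts in the results for the 10 genes was not tested.

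**Figure D4:**
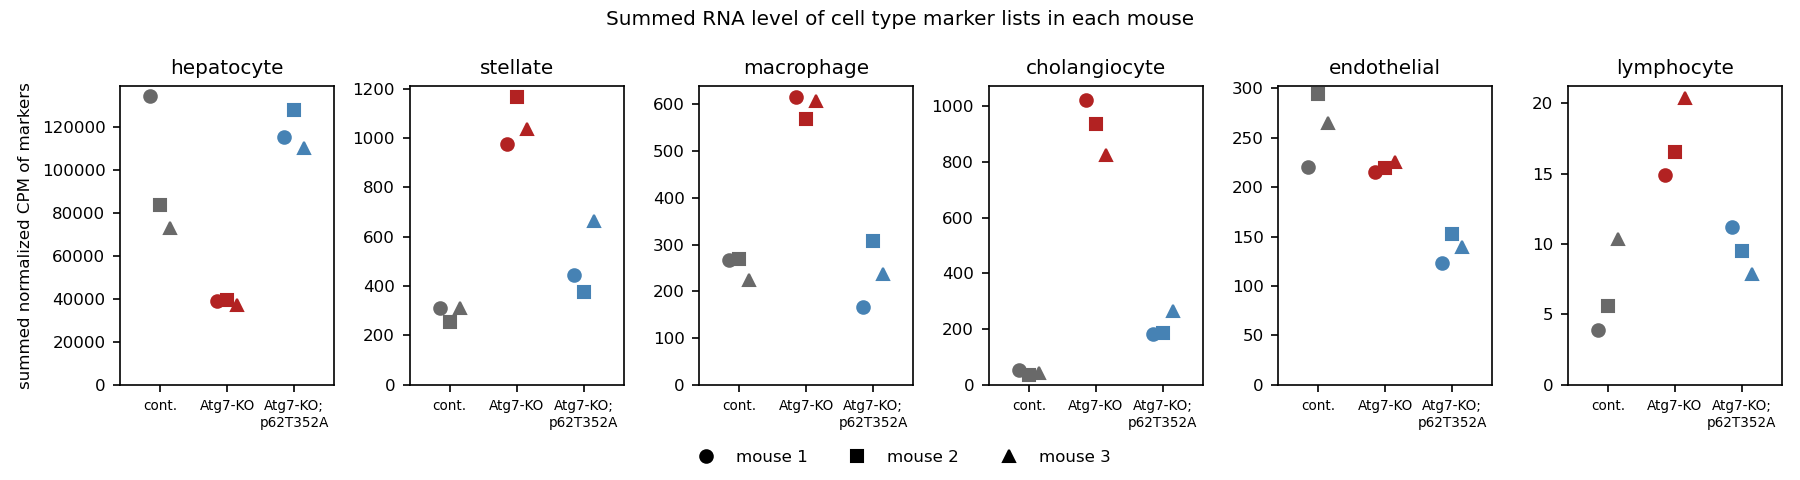
Summed normalized CPM of the marker list of each cell type in each liver, by genotype, with mouse numbers as symbols and axes from 0. The hepatocyte sum is lowest in *Atg7*-KO, at 36897 to 39236, where the stellate cell, macrophage, cholangiocyte and lymphocyte sums are highest.

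The genes whose course over the 9 livers was closest to each member were sought by the root mean square (RMS) difference of gene-centred log2 CPM. For *Mat1a* these were *Lipc*, hepatic lipase (RMS 0.145), and *Amdhd1* of histidine breakdown (0.150). *Amdhd1* was also the closest gene to *Cbs* (0.118), followed by *Adck5* (0.138). *Ahcy* was matched by *Macrod1* (0.124) and by *Pipox* (0.176), the peroxisomal sarcosine and pipecolate oxidase. *Bhmt2* had *Sdhb*, a subunit of succinate dehydrogenase (0.102), and *Marc1* (0.102) closest to it, and *Cth* had *Pecr* (0.141) and *Slc27a5*, a bile acid CoA ligase (0.141). For *Mat2a* the closest were *Cap1* (0.103) and *Cd2ap* (0.106), both tied to the actin cytoskeleton, and for *Mat2b* *Tmem38b* (0.0871) and *Lnp* (0.0902).

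Matches were looser for the other 3 genes. *Gnmt* was nearest to *Colec10* (RMS 0.236) and *Srgap3* (0.298). *Colec10*, a collectin, stood at a mean of 33.4 normalized CPM in cont. (SD 10.1, n = 3), against 13.5 ± 2.14 in the *Atg7*-KO and 13.5 ± 1.46 in the double-mutant livers. *Bhmt* was nearest to *Gm16157* (0.181) and *2310039H08Rik* (0.223), and *Nnmt* to *Adtrp* (0.277) and *Zap70* (0.287). With a prior count of 0.5 in place of 2 for log2 CPM, 18 of the 20 matches were kept.

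**Figure D5:**
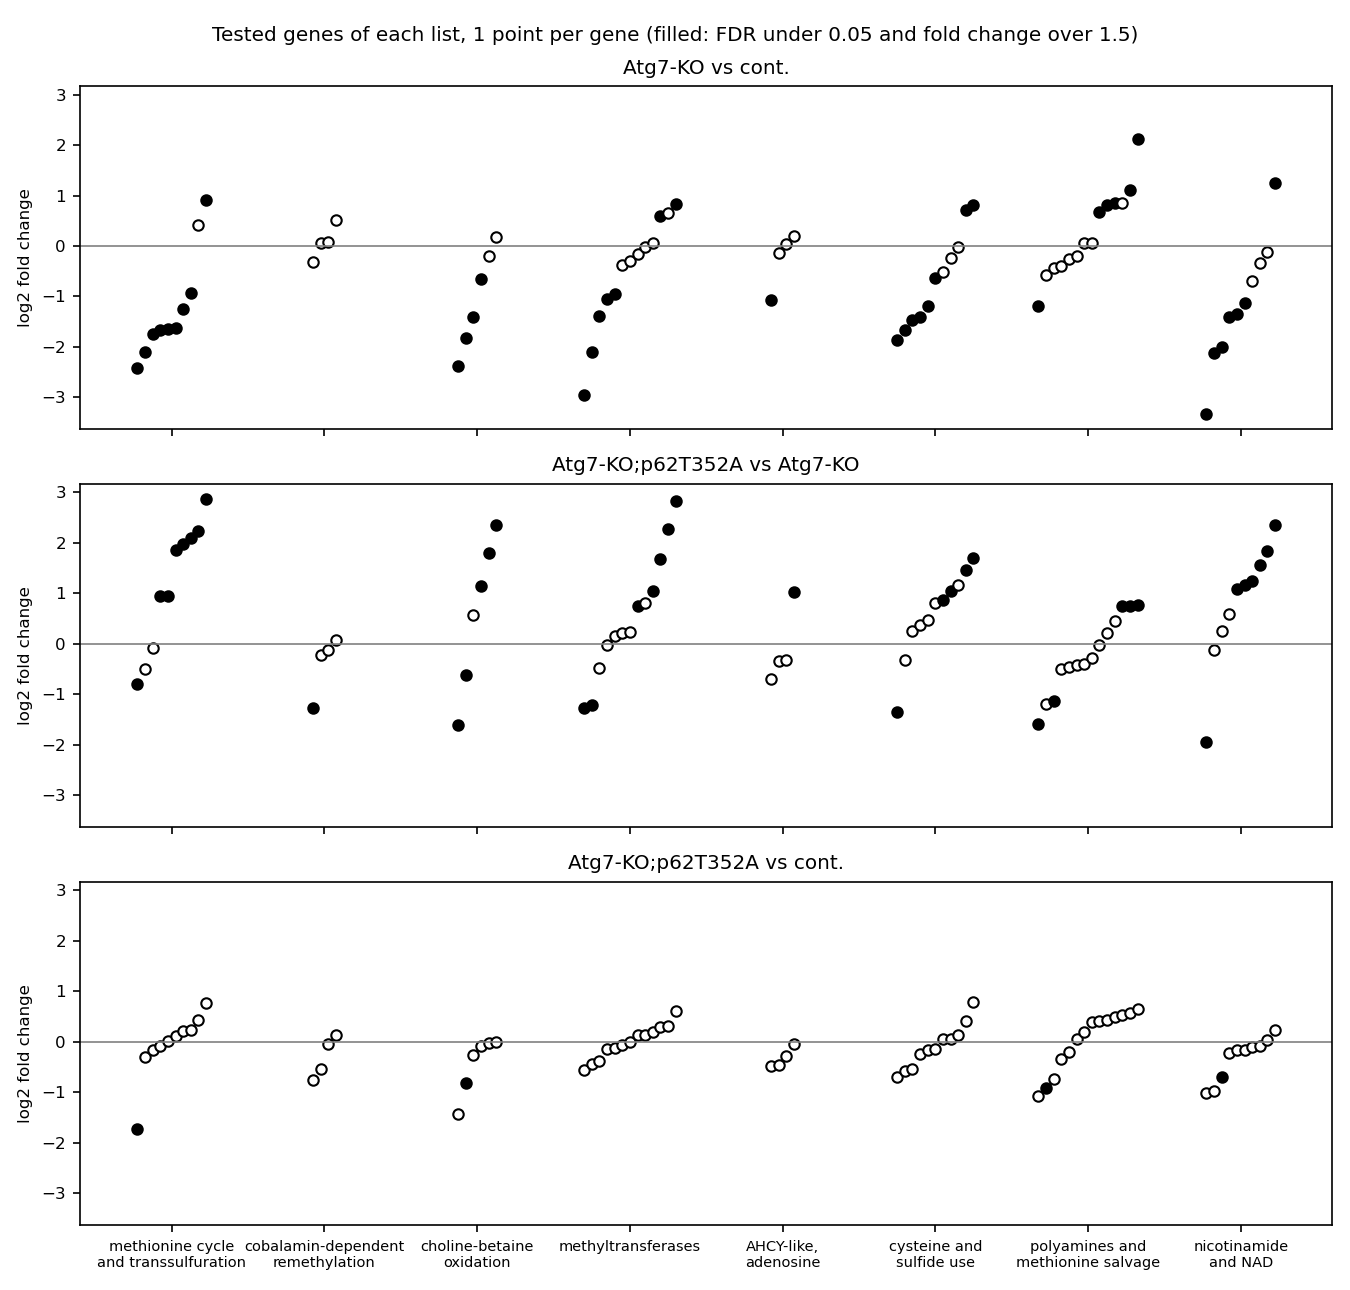
Log2 fold change of every tested gene of the 10 enzymes and of 7 neighbouring lists, 1 point per gene, in the 3 comparisons, with filled points for called genes. In *Atg7*-KO against cont. the cobalamin-dependent list, of which 1 gene is not reported, has 0 filled points of 4. For choline and betaine oxidation 4 of 6 genes are filled, all below 0. Among all tested genes 43.7% were called in this comparison, and 22.1% were called lower. Whether the lists differ was not tested.

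The other genes of the pathway were taken as lists. A second route from homocysteine to methionine depends on cobalamin, and *Mtr*, *Mtrr*, *Mmachc* and *Mmadhc* are genes of it. In *Atg7*-KO against cont. livers 0 of these 4 were called by edgeR, 0 had an unadjusted p under 0.05, and DESeq2 called 0, where 43.7% of all tested genes were called. Their median log2 fold change was 0.07. *Mtr*, methionine synthase, was at 0.51 ± 0.27 (FDR 0.145). In the double mutants *Mtr* was lower than in *Atg7*-KO (-1.27 ± 0.28, FDR 0.00388), and against cont. it was at -0.76 ± 0.28 (FDR 0.11). In that last comparison edgeR called 0 of the 4, where 11.6% of all tested genes were called. Of the 4, 1 had an unadjusted p under 0.05, and DESeq2 called 1 lower.

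Choline oxidation makes the betaine that BHMT uses, and the dimethylglycine that BHMT leaves is taken down to sarcosine and glycine. Of 6 genes of this chain, 4 were called lower and 0 higher in *Atg7*-KO, with a median of -1.02, where 22.1% of all tested genes were called lower, and 3 calls were left with upper-quartile scaling, with a changed or dropped low-count filter, with the mouse number as a block or under glmTreat, which tests against a 1.5-fold change. *Dmgdh* (-1.40 ± 0.27, FDR 0.0025), *Sardh* (-1.82 ± 0.22, FDR 0.000222) and *Pipox* (-2.38 ± 0.21, FDR 4.41e-05), which oxidize dimethylglycine and sarcosine, fell. *Aldh7a1*, which oxidizes betaine aldehyde, fell least (-0.65 ± 0.23, FDR 0.0407). In double-mutant livers *Dmgdh* (1.14 ± 0.26), *Sardh* (1.80 ± 0.22) and *Pipox* (2.35 ± 0.21) were called higher than in *Atg7*-KO. *Chdh*, choline dehydrogenase, was at -0.21 ± 0.16 in *Atg7*-KO against cont. (FDR 0.317). In the double mutants it was called lower than in *Atg7*-KO (-0.61 ± 0.16, FDR 0.0101) and than in cont. livers (-0.82 ± 0.16, FDR 0.015). *Chdh* and *Slc44a1*, a choline transporter at -1.61 ± 0.55 between the mutants (FDR 0.0326), were named here after their values were seen. Of the 6 genes, edgeR called 2 lower between the mutants and 1 lower against cont., where 26.2% and 5.34% of all tested genes were. Under glmTreat both counts were 0, and DESeq2 called 2 lower against cont.

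Of 13 further methyltransferases, *Atg7*-KO against cont. had 2 higher and 5 lower calls, with a median of -0.29, beside 21.6% higher and 22.1% lower of all tested genes. The higher calls were 1 with DESeq2 or its size factors, 3 with the mouse number as a block and 0 under glmTreat. The lower calls were 4 with upper-quartile scaling, the filter of 10 counts per mouse, the mouse number as a block or under glmTreat. The largest rise was that of *Dnmt1*, the maintenance DNA methyltransferase (0.83 ± 0.21, FDR 0.011). The largest fall was that of *Inmt*, indolethylamine N-methyltransferase (-2.95 ± 0.23, FDR 2.99e-05), a drop larger than that of any of the 10 enzymes. Between the mutants *Inmt* was higher by 2.83 ± 0.23 (FDR 3.87e-05) and *Dnmt1* lower by -1.28 ± 0.22 (FDR 0.00109) in the double mutants. Against cont. edgeR called 0 of the 13 in the double mutants, where 11.6% of all tested genes were called. Of the 13, 1 had an unadjusted p under 0.05, and DESeq2 called 0.

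Around AHCY, the AHCY-like genes *Ahcyl1* (-0.13 ± 0.17, FDR 0.559) and *Ahcyl2* (0.04 ± 0.32, FDR 0.933) were not called in *Atg7*-KO. *Adk*, the adenosine kinase that removes the second product of the AHCY reaction, fell (-1.08 ± 0.23, FDR 0.00456), and it was higher in the double mutants than in *Atg7*-KO (1.02 ± 0.23, FDR 0.00483). In *Atg7*-KO against cont. *Adk* was the 1 gene called of the 4 in this list, where 43.7% of all tested genes were called.

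Below transsulfuration, 6 of 11 tested genes of cysteine and sulfide use were called lower in *Atg7*-KO and 2 higher, with a median of -0.64. Of all tested genes 22.1% were called lower and 21.6% higher. The higher calls were 0 with DESeq2's size factors, with the mouse number as a block or under glmTreat, and 1 without the low-count filter, while the lower calls stayed at 4 (glmTreat) to 6. *Cdo1*, the cysteine dioxygenase that opens the way to taurine, fell by 1.41 ± 0.20 (FDR 0.000569). *Got1* (-1.86 ± 0.46, FDR 0.00884), a cytosolic aspartate aminotransferase, and *Suox* (-1.46 ± 0.33, FDR 0.00591), sulfite oxidase, also fell. So did *Tst* (-1.66 ± 0.26, FDR 0.000994), *Mpst* (-1.19 ± 0.33, FDR 0.0156) and *Ethe1* (-0.64 ± 0.23, FDR 0.0451), which handle sulfane sulfur. *Sqrdl*, sulfide quinone oxidoreductase (0.81 ± 0.30, FDR 0.0482), and *Ado*, cysteamine dioxygenase (0.72 ± 0.24, FDR 0.0368), were the genes called higher. In the double mutants *Cdo1* (1.47 ± 0.20, FDR 0.000385), *Tst* (1.71 ± 0.26, FDR 0.000683), *Mpst* (1.04 ± 0.33, FDR 0.0239) and *Suox* (0.87 ± 0.33, FDR 0.0449) were called higher than in *Atg7*-KO, and *Sqrdl* (-1.36 ± 0.30, FDR 0.00434) lower. These 4 higher calls were 3 with DESeq2's size factors, upper-quartile scaling or the filter of 10 counts per mouse, 2 under glmTreat and 5 with DESeq2. Between the mutants 24.7% of all tested genes were called higher and 26.2% lower. Against cont. edgeR called 0 of the 11 in the double mutants, where 11.6% of all tested genes were called. Of the 11, 0 had an unadjusted p under 0.05, and DESeq2 called 0.

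SAM also feeds polyamine synthesis, whose by-product is returned by the methionine salvage pathway. In *Atg7*-KO this list of 14 had 5 higher calls and 1 lower, against 21.6% higher and 22.1% lower of all tested genes. Under glmTreat 2 of the higher calls were left, and DESeq2 or its size factors gave 2 lower calls. *Smox*, spermine oxidase, rose most (2.12 ± 0.25, FDR 0.000223). *Paox*, which oxidizes acetylated polyamines, fell (-1.19 ± 0.23, FDR 0.00298). In the double mutants *Smox* was lower than in *Atg7*-KO (-1.59 ± 0.24, FDR 0.000642). *Azin1*, an inhibitor of antizyme named after its values were seen, was the gene of this list called against cont. there by edgeR (-0.92 ± 0.23, FDR 0.0322). Of all tested genes edgeR called 11.6% there. DESeq2 called 3 of the list lower against cont., glmTreat 0, and edgeR without the low-count filter 1 lower and 1 higher.

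Nicotinamide is the substrate of NNMT. Of 10 genes of its recycling and breakdown, *Atg7*-KO livers had 1 called higher and 6 lower, with a median of -1.24, beside 21.6% higher and 22.1% lower of all tested genes. *Nampt*, the rate-limiting enzyme that returns nicotinamide to NAD, rose (1.25 ± 0.15, FDR 0.000261), opposite in sign to *Nnmt*. *Cyp2e1*, which oxidizes nicotinamide among many substrates, fell 10.0-fold (-3.33 ± 0.31, FDR 6.41e-05). In the double mutants *Nampt* was lower than in *Atg7*-KO (-1.95 ± 0.16, FDR 3.76e-05) and than in cont. livers (-0.70 ± 0.15, FDR 0.0217), while *Cyp2e1* was 2.35 ± 0.30 higher than in *Atg7*-KO (FDR 0.000261) and at -0.97 ± 0.29 against cont. (FDR 0.0555). Against cont. DESeq2 called 3 of the 10 lower in the double mutants, where edgeR called 1. Among all tested genes edgeR called 5.34% lower there.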

How the data were processed

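Poly(A) RNA from the livers of 3 cont., 3 *Atg7*-KO and 3 *Atg7*-KO;p62T352A mice was read by the authors in single-end runs of 75 bp. They trimmed reads with Trim Galore, aligned them to mm10 using STAR and counted genes using RSEM. The deposited values are RSEM expected counts per gene, unscaled, made by the authors with 1 column per mouse. Versions, annotation and strand setting are not given in the sources used here. The labels name an RNeasy kit and the methods TRIzol. Columns were assigned through the genotype and mouse number of the labels. A further 3 labelled p62T352A mice, the p62S351A mice and the proteome were not analysed here.

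Expected counts were rounded and analysed in R 4.3.3. Genes were kept by filterByExpr of edgeR 4.0.16 with genotype as group, scaled by TMM and fitted over all 9 mice in 1 quasi-likelihood model (glmQLFit, glmQLFTest, two-sided). FDR is the Benjamini-Hochberg adjusted p over the 13922 tested genes. A gene was called at an FDR under 0.05 and a fold change over 1.5, thresholds taken from the study. Standard errors were derived from the F statistic. Log2 CPM for gene likeness used a prior count of 2. Per-length levels divide normalized CPM by the length of 1 transcript per gene of the GENCODE vM21 annotation of GRCm38, the APPRIS principal one with support level 1 (the longest if several). Shared sequence is the percentage of the 75-base stretches of all transcripts of a gene that are found in transcripts of any other gene. Promoters are from RefSeq (GRCm38.p6). Sequences were handled in Python 3.11.15 with numpy 2.4.6 and Biopython 1.88, and plots made with matplotlib 3.10.9.

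The 10 genes and all lists were chosen with earlier results of these data known. From the remethylation list 1 gene is not reported here. Genes named one by one are the 10 members, in each further list the called gene with the largest rise and the largest fall in *Atg7*-KO at a mean CPM of at least 1 (every called gene for the remethylation, betaine and cysteine lists), and for each member the 2 closest genes by RMS difference. *Mtr*, *Ahcyl1*, *Ahcyl2*, *Chdh*, *Slc44a1*, *Azin1*, *Spp1*, *Sox9*, *Epcam* and *Cps1* fall outside this rule and were named after their values were seen. The same holds for *Col1a1*, *Col1a2*, *Col3a1* and *Reln*. Alternatives were DESeq2 1.42.0, its size factors or upper-quartile scaling in edgeR, the mouse number as a block, the low-count filter dropped or raised to 10 counts per mouse, removal of the 20 most counted genes, FDR alone, glmTreat, the mice numbered 1 left out, each mouse left out in turn, and, added after seeing the data, a term for mouse number 1 or not. In a simulation of *Atg7*-KO against cont. over 13606 genes, 93.9% of the tested genes changed 4-fold (200 were changed) were called, as were 9 unchanged genes. It gave every gene and genotype the same dispersion of 0.08, and far fewer genes changed than were called in the data. Its figures therefore check the code and do not give the recovery or the false calls in these data.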

Additional observations from a re-analysis of the deposited data

How the results depend on the processing

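Over 18 alternatives, glmTreat and FDR alone not counted, 515 values for single enzymes kept their direction and side of the threshold, 4 lost a call, 3 gained one and 18 changed sign. All 18 sign changes were in differences that had not been called. *Gnmt* in *Atg7*-KO;p62T352A against *Atg7*-KO was 0.19 without the mice numbered 1 and -0.28 to 0.12 with single mice left out (above 0 without *Atg7*-KO mouse 1 or *Atg7*-KO;p62T352A mouse 3). In *Atg7*-KO;p62T352A against cont., *Bhmt2* became -0.0390 with DESeq2's size factors, -0.0111 with upper-quartile scaling, -0.0395 with DESeq2 and -0.00177 without the mice numbered 1, while *Mat2b* became 0.23 and *Cth* 0.16 without the mice numbered 1. With single mice left out, the ranges there were -0.0292 to 0.22 for *Mat2a*, -0.30 to 0.16 for *Mat2b*, -0.11 to 0.46 for *Bhmt*, -0.0865 to 0.11 for *Bhmt2* and -0.61 to 0.0584 for *Cth*. The cause was not tested.

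Calls among the 10 enzymes in *Atg7*-KO;p62T352A against cont. were 0 to 1 with single mice left out, 0 without *Atg7*-KO;p62T352A mouse 3. Under glmTreat, which tests against a 1.5-fold change, the enzymes had 6 higher and 0 lower calls between the mutants where 7 and 1 were reported, so *Mat2a* lost its call, and all genes had 3855 calls in *Atg7*-KO against cont., 4718 between the mutants and 253 in *Atg7*-KO;p62T352A against cont. The last comparison had 1613 calls as reported, 2975 without the mice numbered 1, and 435 (without *Atg7*-KO;p62T352A mouse 3) to 3245 (without cont. mouse 1) with single mice left out. It was also moved by over 1.5 times without cont. mouse 2 (852), *Atg7*-KO mouse 1 (781), 2 (750) or 3 (751), or *Atg7*-KO;p62T352A mouse 1 (847) or 2 (972). The *Atg7*-KO mice are in neither group of that comparison. They enter it through the 1 fit, in which all genotypes share the estimate of spread, also for *Gnmt*. Why the counts moved was not tested. Upper-quartile scaling moved the median of all genes from -0.03 to 0.08 in *Atg7*-KO against cont. and from 0.00 to -0.13 between the mutants, and *Mat2b* was then called lower between the mutants.

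The genotypes share mouse numbers. Deviations from the genotype mean correlated by 0.137 to 0.271 between mice numbered 1, -0.202 to 0.0926 between mice numbered 2 and 0.181 to 0.321 between mice numbered 3. Between mice of different number and genotype the correlations ran from -0.340 to 0.176. The numbers were not taken as pairs because no pairing is named for these mice, and the correlations do not settle whether they share a source. With the number as a replicate block, *Atg7*-KO;p62T352A against cont. had 988 calls, and the enzymes had 9, 8 and 1 calls in the 3 comparisons, the counts reported. *Xist* set the mice numbered 1 apart from the other 6. A term for mouse number 1 or not, chosen after seeing the data, left 9, 8 and 1 calls and changed none of the 10 enzymes' calls or signs, with *Mat2b* at 0.43 (FDR 0.106) in *Atg7*-KO against cont. Without the mice numbered 1 that difference was called (0.64, FDR 0.00782).

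With 3 mice per genotype and 9671080 to 23285132 counts per library, the standard errors of 0.16 to 0.34 on the log2 scale limit what differences between *Atg7*-KO;p62T352A and cont. livers could be seen. Intervals and errors cover these mice only.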
